A study of Arabidopsis thaliana with 12 samples.

Results

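Transcript levels of all genes were compared between a mettl16 mutant and its reference accession Col-0 of Arabidopsis thaliana. The comparison took the 3 mettl16 and 3 Col-0 RNA-seq libraries, 6 of the 12 samples of the series, and every gene of the expression table. That table held 25566 genes, all of which are counted here, and 19505 of them passed a filter on low values and were tested. All plants were 3 weeks old, from long days (16 h of light, 8 h of darkness, 23 °C), and RNA came from the aerial part of the plant, which mixes leaves, stem and shoot apex. Col-0 is the wild type and mettl16 is given by its name alone, with no allele, locus or background in the labels. Each genotype had 3 biological replicates, and nothing says whether a replicate was 1 plant or a pool, so the p-values measure the spread between these libraries. The other 6 samples of the series are m6A immunoprecipitates of the same genotypes.

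METTL16 is a conserved RNA methyltransferase that places N6-methyladenosine (m6A) on the U6 small nuclear RNA and on a few other transcripts, and in plants its loss is known to hasten flowering. FIO1 (AT2G21070) is known as the Arabidopsis homologue, and the mutation is assumed to lie in it, since the labels give no locus. Its level was 1.98, 2.12 and 2.31 FPKM in Col-0 and 0.292, 0.148 and 0.197 FPKM in mettl16. It was lower in each mettl16 library than in each Col-0 library (log2 change -1.37, SE 0.0853, limma adjusted p = 4.94e-07). FIO1 passed the filter on low values only through Col-0, so its p-value and separation add no support.

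Values are the authors' FPKM, which scale the fragments of a gene by its length and by the library, and every change is a difference of log2(FPKM + 1), mettl16 minus Col-0. A gene is called where limma gave an adjusted p under 0.05. FPKM keeps no count, so the depth behind a value is unknown. The genotypes were far apart. The first principal component held 84.0% of the variance of log2 values and separated all 3 mettl16 from all 3 Col-0 libraries. The mettl16 replicate 3 library stood apart within its genotype, with 0.578% of its FPKM in genes of the plastid genome against 0.116% to 0.209% in the other libraries.

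Most genes differed, and most differences were small. Of the 19505 tested genes 12584 (64.5%) were called, 8016 higher (41.1%) and 4568 lower (23.4%) in mettl16. The median change of all tested genes was 0.08, with quartiles at -0.14 and 0.32, and among called genes the median absolute change was 0.36. Only 590 genes were higher (3.02%) and 397 lower (2.04%) by at least 1 on the log2 scale. The values of the genotypes did not overlap in 69.8% of tested genes. Of the called genes 63.7% were higher on the deposited scale, 52.5% once libraries were centred on their medians and 49.3% once their quantiles were matched, so counts below are read against the all-gene shares of their own scale. These are 41.1% higher and 23.4% lower on the deposited scale, 33.4% and 30.2% after median centring, and 31.2% and 32.1% after quantile normalization.

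**Figure D1:**
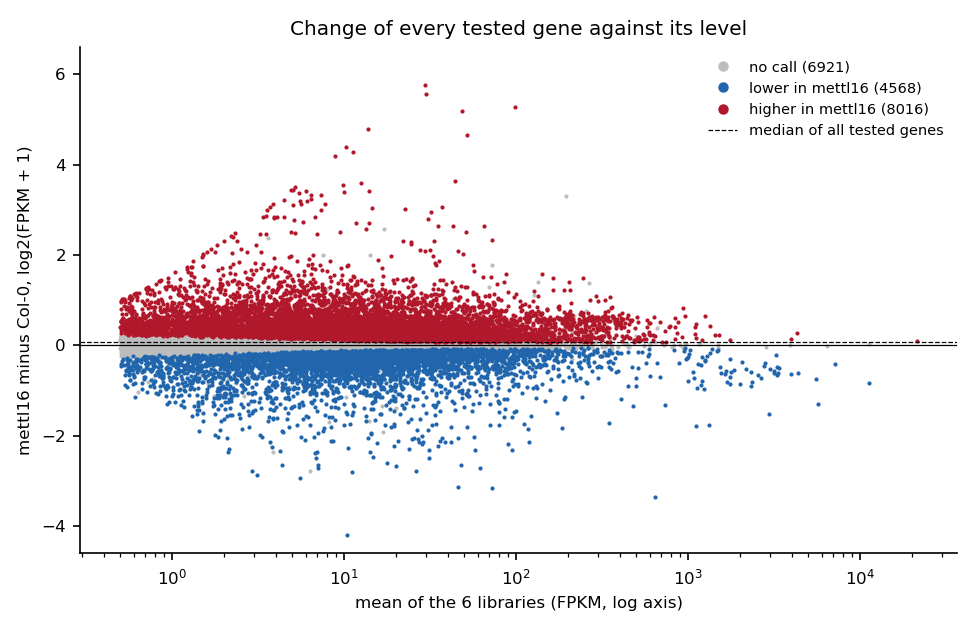
Change of each of the 19505 tested genes (mettl16 minus Col-0, log2(FPKM + 1)) against its mean over the 6 libraries (FPKM, log axis), coloured by limma's call. Calls lie on both sides at every level, and the added 1 holds down the changes of genes near 0 FPKM.

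The share of called genes went with the level of the gene. When tested genes were split into 5 equal classes by mean FPKM, the share called went from 56% in the lowest class to 78.5% in the highest. Of the 200 most abundant genes 83 were higher (41.5%) and 87 lower (43.5%), against 41.1% and 23.4% of all tested genes. None of them rose by at least 1 and 8 fell by that much. These 200 genes held 42%, 41.9% and 42.2% of the summed FPKM of Col-0 libraries, against 36.4%, 35.8% and 35.9% in mettl16. The share was lower in each mettl16 library. The 5 nuclear chromosomes were alike, with 64.3% to 65.5% of their genes called.

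Summed levels of floral organ markers were higher in mettl16. Transcripts of anthers, tapetum (the cell layer that feeds pollen) and pollen summed to 6.02 to 6.67 FPKM over 20 listed markers in Col-0 and to 41.7 to 43.8 FPKM in mettl16. Of the 20, 12 were at 0 in all 3 Col-0 libraries, and 12 passed the filter, which a gene near 0 in Col-0 could pass only by being higher in mettl16. Petal, carpel and ovule markers summed to 69.6 to 73.1 FPKM in Col-0 and to 116 to 119 FPKM in mettl16 over 17 genes. GRP17, an oleosin of the pollen coat, was listed at 0 in every Col-0 library, whereas the mettl16 libraries had 7.95, 7.64 and 7.63 FPKM. CRC, a carpel regulator, was at 0.198, 0.217 and 0.276 FPKM in Col-0 and 2.53, 2.21 and 2.24 FPKM in mettl16, and SPT, which acts in the carpel margin, at 1.86, 1.86 and 1.57 FPKM in Col-0 and 5.23, 5.2 and 5.35 FPKM in mettl16. Both lay higher in every mettl16 library (1.43 and 1.18, limma adjusted p = 2.37e-07 and 2.99e-07). CRC too passed the filter only through mettl16, so its p-value adds no support. In bulk tissue, more cells of a type and more RNA per cell cannot be told apart, and the part of floral organs in the results below was not tested.

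Leaf markers were abundant in both genotypes. Mesophyll and bundle sheath markers summed to 35769 to 37188 FPKM in Col-0 and to 34262 to 36602 FPKM in mettl16, ranges that overlap. Their members were split, 3 higher and 4 lower of 10, with 1 past 1 each way. The counts were 3 and 2 with values rescaled to TPM, and 4 and 4 after quantile normalization. Xylem markers rose in 10 of 11 tested members and none fell, with sums of 93.4 to 97.7 FPKM in Col-0 and 140.2 to 146 FPKM in mettl16. Guard cell markers summed to 2372 to 2400.5 FPKM in Col-0 and to 1375 to 1404 FPKM in mettl16, most of it TGG1, a myrosinase, which went from 2249.5 ± 17 to 1251 ± 13 FPKM (SD, n = 3 each). The other guard cell genes mostly rose, with 7 of 11 tested members higher and 3 lower, TGG1 among the latter. Root markers summed to 93.3 to 94.5 FPKM in Col-0 and to 99.8 to 104 FPKM in mettl16 over 10 genes. Of 3 tested, SHR and SCR, which also act in shoots, rose by 0.40 and 0.17, while PYK10, a glucosidase that made up most of the sum, changed by 0.05 and did not pass the test. MYB36 and CASP1, of the root endodermis, were near 0. Of 8 epidermis markers 4 fell and 1 rose, or 7 fell and 1 rose after median centring, and of 10 phloem markers 5 rose and 1 fell, a fall not called without Col-0 replicate 2 or 3 or mettl16 replicate 2 or 3, while 2 fell without mettl16 replicate 1. Seed and embryo markers summed to 3.77 to 4.26 FPKM in Col-0 and to 7.29 to 7.64 FPKM in mettl16 over 11 genes. Only 3 of them passed the filter, OLEO3, an oil body protein, through mettl16 alone, from 0.0682 ± 0.0615 to 1.37 ± 0.191 FPKM. All 3 rose, 1 of them left with a filter at 1 FPKM, and nothing is read from that count. Storage protein genes such as CRA1 stayed near 0.

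The best known flowering, antenna and defence genes were left out of the ranking, and the 25 largest rises of the others ran from 2.84 to 3.59. Among them LTP12, a lipid transfer protein, was listed at 0 in every Col-0 library, whereas mettl16 had a mean of 9.85 ± 0.397 FPKM (SD, n = 3), and AT5G44540, described as a tapetum protein, was at 0.244, 0.206 and 0.401 FPKM in Col-0 and 10.7, 11.3 and 10.4 FPKM in mettl16. FAF2, a regulator of shoot meristem size, was at 0.931, 0.888 and 0.953 FPKM in Col-0 and 18.4, 18.3 and 20.7 FPKM in mettl16. ERF71, an ethylene response factor of the group known for the low-oxygen response, was at 0.196, 0.316 and 0.296 FPKM in Col-0 and 9.96, 9.77 and 9.86 FPKM in mettl16. For each of these the lowest mettl16 library lay far above the highest Col-0 library. LTP12, AT5G44540 and ERF71 passed the filter only through mettl16, so their separation is description alone.

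Other large rises were seen in genes that plants switch on when mitochondria are disturbed. When respiration is inhibited, a signal from the mitochondrion to the nucleus turns on an alternative oxidase, alternative NAD(P)H dehydrogenases and a set of transporters and enzymes. A list of 21 such genes was written after these values had been seen, so its counts describe and support nothing. Of 20 tested members 16 rose, 10 of them by at least 1, and 3 fell, and the median change was 1.16 against 0.08 over all tested genes.

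UGT74E2, a glucosyltransferase of the auxin precursor indole-3-butyric acid, was at 1.11, 1.05 and 1.05 FPKM in Col-0 and 23.48, 24.1 and 24.1 FPKM in mettl16 (log2 change 3.59, SE 0.0493, limma adjusted p = 3.37e-11). AOX1A, the alternative oxidase of the respiratory chain, was at 19.2, 18.8 and 18.7 FPKM in Col-0 and 52.5, 54.8 and 53.3 FPKM in mettl16 (log2 change 1.45, SE 0.0324, limma adjusted p = 6.09e-10). NDB4, an external NAD(P)H dehydrogenase of mitochondria, was at 0.0249, 0 and 0 FPKM in Col-0 and 7.1, 7.39 and 6.77 FPKM in mettl16. The groups were far apart in all 3 genes, but NDB4 passed the filter only through mettl16. AT2G21640, for which the table gives no description, was at 7.99, 6.82 and 6.65 FPKM in Col-0 and 70.4, 65.7 and 64.5 FPKM in mettl16. AT5G09570, a Cox19-like protein that also passed the filter only through mettl16, was at 0.606, 0.129 and 0.518 FPKM in Col-0 and 13.7, 11 and 10.8 FPKM in mettl16. NAC13, a transcription factor known to act in this signalling, went from 6.16 ± 0.685 to 25.4 ± 0.617 FPKM. Members of the list also went the other way. AOX1D, a second alternative oxidase gene, was at 0.767, 0.999 and 1.19 FPKM in Col-0 and 0.068, 0.114 and 0.052 FPKM in mettl16, NDA2, an internal dehydrogenase, changed by -0.49, and CYP81D8 by -0.58, while BCS1 differed by 0.03 and did not pass the test (limma adjusted p = 0.71). AOX1D passed the filter only through Col-0.

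**Figure D2:**
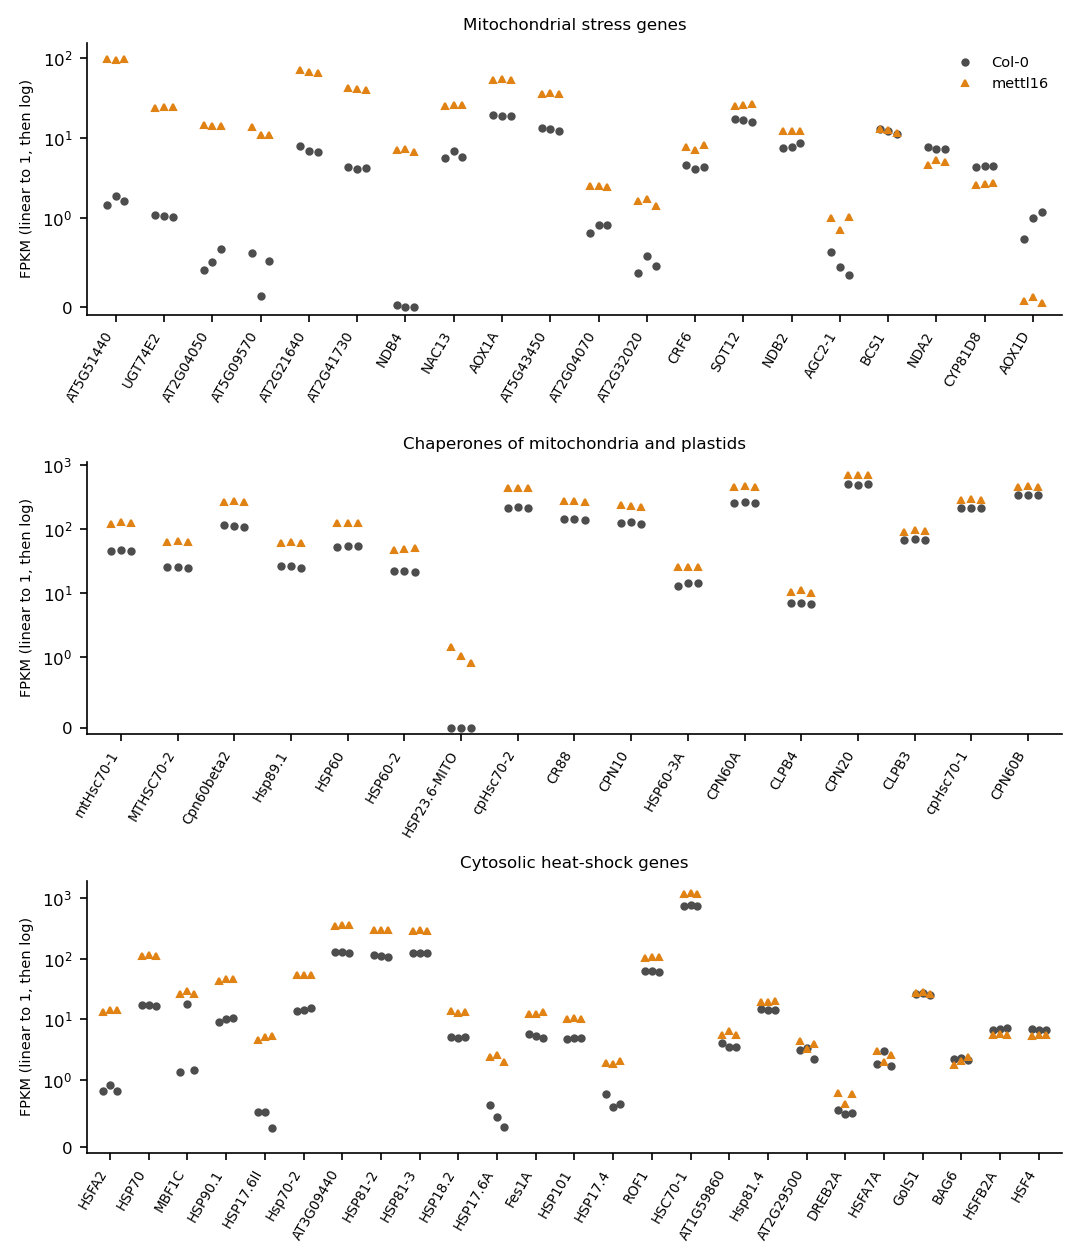
FPKM (linear up to 1, then a log axis) of each tested member of 3 lists in the 3 Col-0 libraries (circles) and the 3 mettl16 libraries (triangles), replicates 1 to 3 from left to right and genes ordered by change. The symbols of AOX1A and of every chaperone of mitochondria and plastids do not overlap between genotypes, whereas MBF1C has 1 high Col-0 library.

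Chaperones were also among the genes that rose. Chaperones fold newly made and imported proteins, and organelles hold their own sets. Of 17 tested chaperones of mitochondria and plastids, listed after the values were seen, all 17 rose (median 0.95), a count that the choice of members fixes. mtHsc70-1, a mitochondrial HSP70, was at 45.3, 47.5 and 45.9 FPKM in Col-0 and 120.0, 128 and 123 FPKM in mettl16 (log2 change 1.4, SE 0.0332, limma adjusted p = 8.95e-10). HSP60, the mitochondrial chaperonin, was at 53.3, 54.3 and 54.7 FPKM in Col-0 and 124, 127 and 123 FPKM in mettl16, and CPN60A, a subunit of the plastid chaperonin, at 255, 264 and 258 FPKM in Col-0 and 457, 473 and 462 FPKM in mettl16. Every mettl16 library exceeded every Col-0 library in these 3 genes. Rises in plastids were of the same kind, with cpHsc70-2 going from 218 ± 1.74 to 436 ± 1.24 FPKM and Cpn60beta2 from 113 ± 2.64 to 266 ± 6.05 FPKM. Of 25 tested cytosolic heat-shock genes, listed in the same way, 18 rose and 2 fell. HSFA2, a heat-stress transcription factor, was at 0.843, 0.927 and 0.834 FPKM in Col-0 and 13.3, 14.1 and 14.2 FPKM in mettl16. HSP70 (AT3G12580) was at 16.9, 17.6 and 16.8 FPKM in Col-0 and 111, 114 and 111 FPKM in mettl16, and HSP90.1 at 9.14, 10.05 and 10.4 FPKM in Col-0 and 43.6, 47 and 46 FPKM in mettl16. HSP101, the disaggregase needed for heat tolerance, went from 4.82 ± 0.11 to 10.3 ± 0.0924 FPKM. The 2 members that fell were HSF4 and HSFB2A, both of the repressor class of heat-shock factors, at -0.27 and -0.27. HSP70 and HSP90 genes have close copies, so the split of fragments among them is uncertain. MBF1C, a heat-stress coactivator, was at 1.37, 17.6 and 1.45 FPKM in Col-0 and 26.6, 29 and 26.1 FPKM in mettl16 and did not pass the test (limma adjusted p = 0.0804), with Col-0 replicate 2 high. Without that library its change was 3.55 on the log2 scale and passed the test. Of 22 tested genes of the unfolded protein response of the endoplasmic reticulum 4 rose and 9 fell, or 2 and 12 after median centring. BIP3, an HSP70 induced by misfolded proteins there, was at 6.4, 5.53 and 5.92 FPKM in Col-0 and 0.765, 0.674 and 0.705 FPKM in mettl16, and CRT3, a calreticulin, fell from 90.5 ± 3.58 to 42.4 ± 3.24 FPKM.

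The ribosome had the highest median change of all pathways. The KEGG annotation in the authors' table named 141 pathways, of which 120 had at least 10 tested genes; it is broad and places some proteins by similarity, so a pathway also holds genes of other roles. In 97 of the 120 more members rose than fell and in 22 more fell than rose. After quantile normalization these counts were 51 and 65. Of 381 ribosome genes 308 rose (80.8%) and 16 fell, with a median of 0.50 against 0.08 over all tested genes, and after quantile normalization 281 rose and 33 fell. The rises were small and shared, and only 8 reached 1. The 31 members described as plastid or mitochondrial, or encoded in an organellar genome, had 9 higher, 0 lower and a median of 0.18. The other 350 had 299 higher, 16 lower and a median of 0.52. AT3G28500, an acidic protein of the large subunit, was at 3.48, 2.43 and 3.02 FPKM in Col-0 and 25.9, 24.3 and 24.6 FPKM in mettl16. AT1G23410, which encodes ubiquitin fused to S27a, was at 12.5, 12.3 and 14.8 FPKM in Col-0 and 33.9, 34.9 and 32.8 FPKM in mettl16. In both, no mettl16 library overlapped Col-0.

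**Figure D3:**
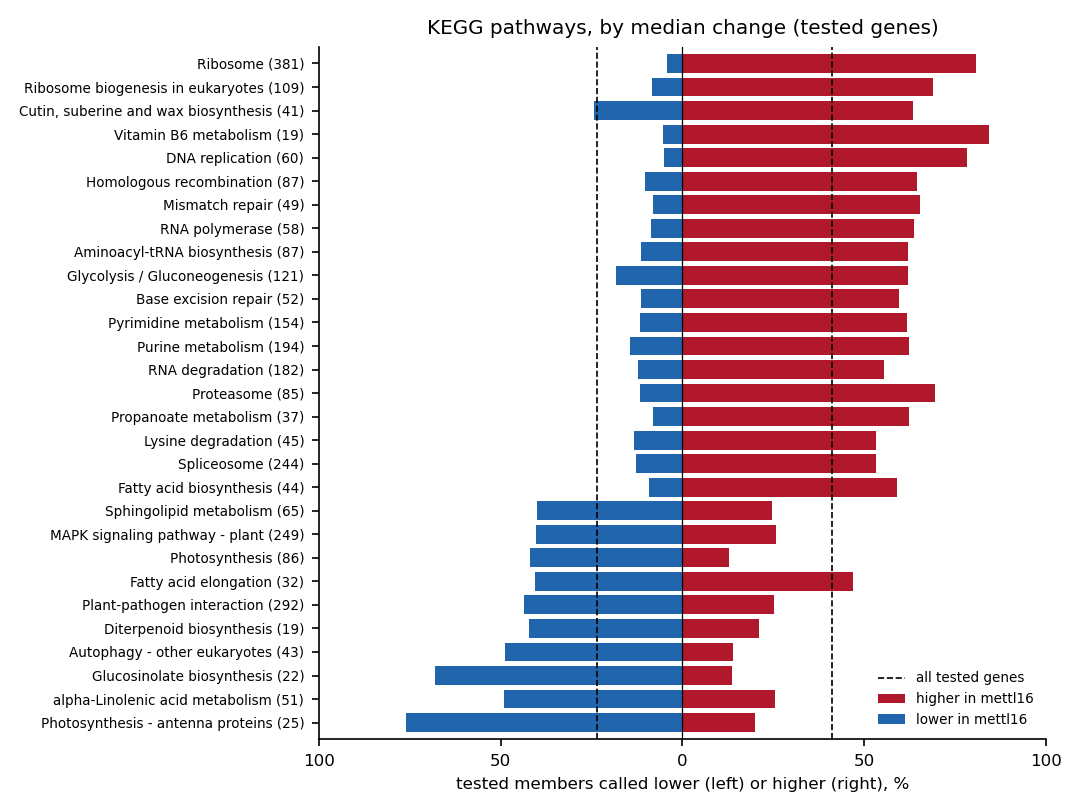
Percent of tested members called higher (right) or lower (left) in mettl16 for the 29 KEGG pathways described, ordered by median change, with the number of tested genes in brackets and the shares of all tested genes as dashed lines. Ribosome genes are higher in 80.8% against 41.1% of all tested genes, and antenna proteins lower in 76% against 23.4%.

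Genes that build ribosomes rose too. Of 109 members 75 rose and 9 fell, with 17 rising by at least 1 and none falling by that much, and after quantile normalization 70 rose and 14 fell. FIB2, the fibrillarin that methylates ribosomal RNA in the nucleolus, was at 19.3, 19.4 and 20.9 FPKM in Col-0 and 56.9, 54.1 and 55.4 FPKM in mettl16 (log2 change 1.44, SE 0.0397, limma adjusted p = 2.33e-09). AT5G27120, a NOP56-like protein of the same particle, was at 22.2, 22.9 and 23.1 FPKM in Col-0 and 61.5, 62.4 and 61 FPKM in mettl16. The enzymes that transcribe ribosomal RNA genes moved the same way. NRPA2, a large subunit of RNA polymerase I, was at 8.38, 8 and 8.21 FPKM in Col-0 and 25.7, 26 and 25.1 FPKM in mettl16, and NRPA1, its largest subunit, at 6.13, 6.05 and 6.52 FPKM in Col-0 and 14, 14.5 and 14 FPKM in mettl16. NRPC2, the second subunit of RNA polymerase III, went from 5.9 ± 0.453 to 13 ± 0.71 FPKM. Over the RNA polymerase pathway 37 of 58 members rose and 5 fell. After quantile normalization 27 rose and 8 fell, with TPM 2 fell, and 3 fell where Col-0 replicate 1 or 2, or mettl16 replicate 1 or 3, was left out. Aminoacyl-tRNA synthesis had 54 higher and 10 lower of 87, or 44 and 19 after quantile normalization, but its 2 largest rises were AT1G58170 and AT3G13650, described as disease resistance-responsive proteins and not as tRNA synthetases.

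Nucleotide synthesis, DNA replication and repair shifted upward too, by smaller amounts. Of 60 DNA replication genes 47 rose and 3 fell (median 0.30). Homologous recombination had 56 higher and 9 lower of 87, or 41 and 14 after quantile normalization, and mismatch repair 32 and 4 of 49. Base excision repair had 31 and 6 of 52. These pathways share genes, such as AT3G18580, a nucleic acid-binding protein at 1.00. MRE11, which trims broken DNA ends, went from 3 ± 0.507 to 7.44 ± 0.136 FPKM. Purine metabolism had 121 higher and 28 lower of 194, with ASE1, of the first step of purine synthesis, at 0.875, 0.574 and 0.568 FPKM in Col-0 and 4.13, 3.86 and 3.89 FPKM in mettl16. Among 20 tested DNA damage response genes 13 rose and none fell with FPKM as deposited, or 7 and 1 after quantile normalization. On the latter scale the share of risers was near the 31.2% of all tested genes, and that of fallers below their 32.1%. NAC044, a transcription factor of the arrest after DNA damage, was at 0.514, 0.833 and 1.03 FPKM in Col-0 and 8.85, 9.2 and 9.2 FPKM in mettl16. GMI1, induced by radiation in Arabidopsis, went from 1.38 ± 0.129 to 4.92 ± 0.309 FPKM (log2 change 1.32, SE 0.0745, limma adjusted p = 2.54e-07). SOG1 and ATM, the master regulator and a sensor kinase of the response, had changes of 0.03 and -0.10 and did not pass the test (limma adjusted p = 0.604 and 0.209).

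RNA and protein turnover genes were shifted in the same direction. RNA degradation had 101 higher and 22 lower of 182, the spliceosome 130 and 31 of 244, and the proteasome 59 and 10 of 85, none past 1. After quantile normalization the spliceosome had 97 higher and 51 lower. The largest rises of the spliceosome pathway were HSP70 genes, which the annotation counts there. In a list of 37 tested genes of nuclear RNA processing and decay 23 rose and 3 fell, or 16 and 8 after median centring and 19 and 7 after quantile normalization. RRP4, an exosome subunit, went from 7.77 ± 0.071 to 14.1 ± 0.262 FPKM, PAB8, a poly(A)-binding protein, rose by 0.60, and RDR6, of small RNA synthesis, changed by -0.19. GRP4 and GR-RBP3, glycine-rich RNA-binding proteins of the mitochondrion, were at 18.1, 13.8 and 13.4 FPKM in Col-0 and 34.6, 32.9 and 32.9 FPKM in mettl16, and at 21.4, 21.7 and 22.7 FPKM in Col-0 and 45.8, 47.6 and 46.8 FPKM in mettl16. Both were higher in every mettl16 library. Their list of cold shock and glycine-rich proteins had 8 of 9 higher, but 3 after median centring, and none lower on either scale. The share of risers after centring was near the 33.4% of all tested genes. Of 31 genes for organelle gene expression 23 rose and 5 fell. SCA3, a plastid RNA polymerase encoded in the nucleus, rose from 11.6 ± 0.518 to 27.5 ± 0.526 FPKM and MGP3, its mitochondrial counterpart, from 6.08 ± 0.324 to 12.4 ± 0.664 FPKM. PTAC16, a protein of plastid nucleoids, fell from 569 ± 3.39 to 248 ± 3.09 FPKM.

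Of 140 mitochondrial genome genes only 20 passed the filter, 12 fell and none rose (median -0.54). The 140 genes summed to 81.9 to 92.9 FPKM in Col-0 and to 52.4, 53.1 and 159 FPKM in mettl16, with mettl16 replicate 3 the highest of all 6 libraries. In that library ATMG01390, ATMG00020 and ATMG00030, none of them called, reached 51.8, 37.6 and 37.3 FPKM. Without it 12 genes fell. With no filter 28 fell, and with a filter at 1 FPKM 6 did. The libraries were made from poly(A) RNA, per the labels. ATMG00480, described as a subunit of the mitochondrial ATPase, was at 1.36, 1.43 and 1.71 FPKM in Col-0 and 0.583, 0.545 and 0.675 FPKM in mettl16. Of 96 tested plastid genome genes 8 rose and 3 fell, or 5 and 5 after median centring. Without mettl16 replicate 3, the library with the high plastid share, 5 rose and 10 fell, without mettl16 replicate 1, 15 rose, and without Col-0 replicate 2, 1 fell.

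Wax genes held some of the largest rises. The cuticle that covers shoots carries alkanes, alcohols and esters made from very long fatty acids. Of 41 genes of cutin, suberin and wax synthesis 26 rose and 10 fell, and 14 rose by at least 1 while none fell by that much. CER4, which reduces fatty acids to the primary alcohols of stem wax, was at 0.794, 0.707 and 0.627 FPKM in Col-0 and 19.1, 19.5 and 18.5 FPKM in mettl16 (log2 change 3.55, SE 0.0602, limma adjusted p = 1.15e-10). CER1, of alkane synthesis, was at 68.1, 73 and 68.7 FPKM in Col-0 and 211, 215 and 209.6 FPKM in mettl16 (log2 change 1.58, SE 0.032, limma adjusted p = 3.28e-10). WSD1, the wax ester synthase of stems, was at 7.26, 7.08 and 6.82 FPKM in Col-0 and 53.6, 55.4 and 54.6 FPKM in mettl16. In all 3 the lowest mettl16 library lay above the highest Col-0 library. SHN1, a transcription factor that promotes wax synthesis, went from 0.0367 ± 0.0636 to 4.49 ± 0.397 FPKM (log2 change 2.4, SE 0.0871, limma adjusted p = 1.41e-08). SHN1 passed the filter only through mettl16, so its p-value adds no support to the rise. KCS16, an elongase of very long fatty acids, went the other way, from 9.21 ± 0.329 to 2.31 ± 0.153 FPKM. Elongation as a pathway was split, 15 higher and 13 lower of 32, and 14 and 17 after quantile normalization. Fatty acid synthesis in the plastid had 26 higher and 4 lower of 44, with BCCP2, a carrier subunit of acetyl-CoA carboxylase, going from 7.65 ± 0.517 to 20.9 ± 0.923 FPKM.

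Of 30 tested genes of cellulose and secondary wall synthesis 22 rose and 4 fell (median 0.45), with 2 falling without Col-0 replicate 1, with TPM or with a constant prior. The cellulose synthases of the secondary wall, IRX3, IRX1 and CESA4, went from 3.98 ± 0.156 to 9.04 ± 0.378 FPKM, from 3.45 ± 0.238 to 7.74 ± 0.404 FPKM and from 5.17 ± 0.0549 to 11 ± 0.665 FPKM, beside the rise of the xylem markers, which hold the same 3 genes. COB and CESA2, of the primary wall, changed by -0.18 and -0.16. Of 21 tubulin and actin genes 18 rose and 1 fell, or 15 and 2 after quantile normalization, with ACT11, an actin of reproductive organs, showing the largest rise, from 23.8 ± 1.41 to 45.6 ± 0.767 FPKM. Aquaporins, water channels of membranes, had 14 higher and 4 lower of 24. GAMMA-TIP, of the vacuole membrane, went from 254 ± 6.15 to 454 ± 11.8 FPKM, and PIP2B, of the plasma membrane, changed by -0.51. Lignin synthesis was mixed, 14 higher and 7 lower of 25, or 9 and 8 after quantile normalization.

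**Figure D4:**
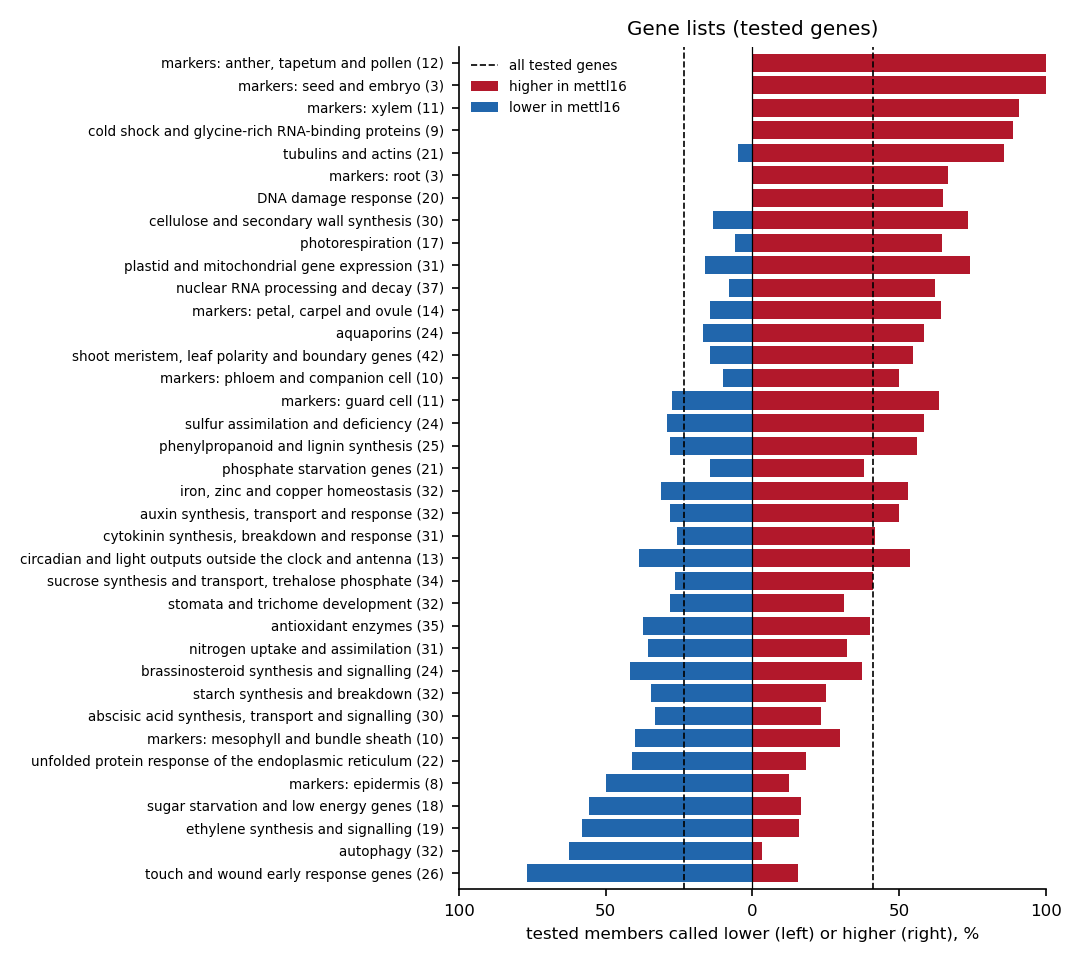
Percent of tested members called higher (right) or lower (left) in mettl16 for the 37 gene lists, ordered by the difference of the shares, with the number of tested genes in brackets and the shares of all tested genes as dashed lines. Lists at the bottom, with 20 of 26 and 20 of 32 members lower, lie beyond the all-gene share of 23.4%.

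Of 86 photosynthesis genes 36 fell (41.9%) and 11 rose, or 25 and 17 after quantile normalization, where the share of fallers was below that of all tested genes. PSAO, a subunit of photosystem I, was at 2639.7, 2427 and 2646 FPKM in Col-0 and 1514, 1366 and 1375 FPKM in mettl16, and PSAD-2, another, at 2177, 2172 and 2043 FPKM in Col-0 and 1244, 1211 and 1208 FPKM in mettl16. FD1, a leaf ferredoxin, rose from 973 ± 32.3 to 1536 ± 33 FPKM and RFNR2, a ferredoxin reductase of heterotrophic tissue, from 8.37 ± 0.29 to 16 ± 4.71 FPKM (limma adjusted p = 0.0333). The RFNR2 call was kept without mettl16 replicate 3, at a change of 1.08, but lost without any of the other 5 libraries. In photorespiration, which recovers carbon lost when Rubisco binds oxygen, 11 of 17 genes rose and 1, GGT1 (AT1G23310), fell. After median centring 10 rose and 3 fell, after quantile normalization 12 and 1, GGT1 no longer called, and without Col-0 replicate 1, 2 fell. CAT2 (AT4G35090), the main leaf catalase, was at 666, 689.8 and 657 FPKM in Col-0 and 1186, 1201 and 1186 FPKM in mettl16 (log2 change 0.83, SE 0.0243, limma adjusted p = 3.58e-09). CAT3 (AT1G20620), the catalase with an opposite daily rhythm, was at 669.7, 719 and 682 FPKM in Col-0 and 268, 278 and 269 FPKM in mettl16 (log2 change -1.34, SE 0.031, limma adjusted p = 7.9e-10). CAT1 changed by -0.83. The 3 catalase genes thus moved apart, and antioxidant enzymes as a list were split, 14 higher and 13 lower of 35, or 11 and 16 after median centring. Among light-regulated genes ELIP1 and ELIP2, early light-induced proteins, were at 23.2, 23.4 and 23.54 FPKM in Col-0 and 125, 121 and 119 FPKM in mettl16, and at 11.3, 11.7 and 10.1 FPKM in Col-0 and 77.9, 73.5 and 72.2 FPKM in mettl16. TT4, the chalcone synthase of flavonoids, went from 227 ± 7.23 to 475 ± 4.53 FPKM, and CDF3, a clock-controlled DOF factor, from 65.9 ± 1.14 to 40.1 ± 0.813 FPKM.

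Leaves short of sugar turn on a set of genes for the breakdown of amino acids and cell contents, and autophagy delivers cell contents to the vacuole. Of 18 tested low-sugar genes 10 fell and 3 rose (median -0.49). SEN1 (AT4G35770), a dark-induced gene, fell furthest, from 12.9 ± 0.89 to 1.15 ± 0.394 FPKM. DIN10, a raffinose synthase family protein induced in the dark, went from 20.6 ± 0.627 to 6.27 ± 0.45 FPKM (log2 change -1.57, SE 0.054, limma adjusted p = 9.77e-09). TPS8, a trehalose phosphate synthase-like protein, was at 32, 31.8 and 30.6 FPKM in Col-0 and 11.6, 12.5 and 12 FPKM in mettl16. ASN1, the asparagine synthetase induced in the dark, was at 2.11, 2.02 and 1.91 FPKM in Col-0 and 0.178, 0.38 and 0.312 FPKM in mettl16. No library overlapped between genotypes in these 4 genes, but ASN1 passed the filter only through Col-0, so its separation is description alone. EXL4 (AT5G09440) and DIN9 rose, by 0.48 and 0.43.

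Of 32 autophagy genes 20 fell and 1, ATG8B, rose. ATG8 proteins coat the growing membrane and bind cargo. ATG8E was at 30.8, 29.3 and 30.5 FPKM in Col-0 and 16.7, 17.9 and 15 FPKM in mettl16 (log2 change -0.83, SE 0.0579, limma adjusted p = 1.18e-06), and ATG8F at 124, 117 and 121 FPKM in Col-0 and 73.9, 69.4 and 71.8 FPKM in mettl16 (log2 change -0.75, SE 0.0337, limma adjusted p = 5.56e-08). ATG8B was at 12.4, 10.4 and 12 FPKM in Col-0 and 16.6, 16.5 and 16.3 FPKM in mettl16. ATG8D and ATG8H had changes of -0.03 and -0.08 and did not pass the test. ATG12A, the conjugation partner of ATG5, went from 6.62 ± 0.604 to 3.73 ± 0.354 FPKM, ATG13, of the initiating kinase complex, from 7.26 ± 0.0239 to 4.94 ± 0.438 FPKM, and NBR1, a cargo receptor, from 49 ± 1.28 to 41.5 ± 1.28 FPKM. ATG5 (APG5 in the gene table) and ATG7 (APG7) had changes of 0.01 and -0.04 and did not pass the test (limma adjusted p = 0.852 and 0.644). The KEGG autophagy pathway, which shares members with the list, had 21 lower and 6 higher of 43.

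**Figure D5:**
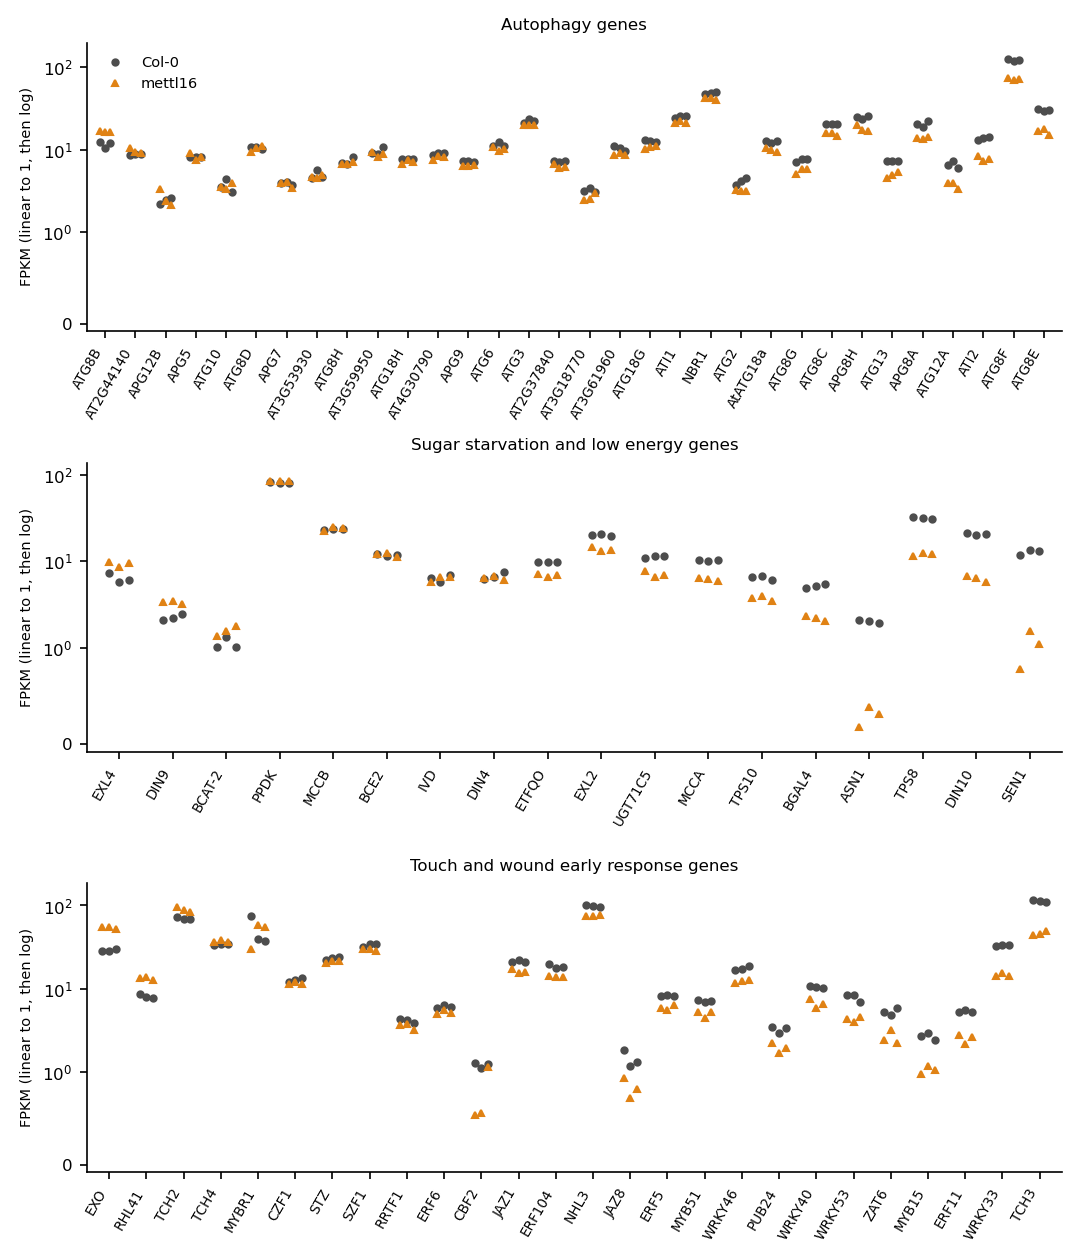
FPKM (linear up to 1, then a log axis) of each tested member of the autophagy, low-sugar and touch and wound lists in the 3 Col-0 libraries (circles) and the 3 mettl16 libraries (triangles), replicates 1 to 3 from left to right and genes ordered by change. ATG8E, SEN1 and TCH3 lie lowest in mettl16 relative to Col-0, and ATG8B, EXL4 and EXO lie at the other end.

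Of 32 genes of starch synthesis and breakdown 11 fell and 8 rose, or 17 and 7 after median centring and 19 and 7 after quantile normalization. SEX1, the kinase that opens starch granules to breakdown, was at 29.5, 29.1 and 29.1 FPKM in Col-0 and 14.3, 14.8 and 14.2 FPKM in mettl16 (log2 change -0.97, SE 0.0348, limma adjusted p = 1.33e-08). DPE1 and PHS1 (AT3G29320), of plastid maltotriose and glucan breakdown, went from 9.25 ± 1.02 to 3.9 ± 0.229 FPKM and from 65.9 ± 0.452 to 31.3 ± 0.566 FPKM. GBSS1, which makes amylose, rose from 94.3 ± 0.365 to 145 ± 2.71 FPKM, and APL4, a subunit of the enzyme that makes the starch precursor, from 4.13 ± 0.247 to 8.53 ± 0.263 FPKM. Sucrose and trehalose genes were split, 14 higher and 9 lower of 34, and 9 and 13 after quantile normalization, but the 3 that fell past 1 were TPS11, TPS8 and MSS1, the last a sugar importer. Glycolysis had 75 higher and 22 lower of 121, with iPGAM2, a phosphoglycerate mutase, going from 62.2 ± 1.27 to 132 ± 2 FPKM. FBA5, an aldolase, fell by 1.14. In nitrogen use GDH1, a glutamate dehydrogenase, fell from 32.7 ± 0.634 to 12 ± 0.0294 FPKM, while NIR1, the nitrite reductase, rose from 110.2 ± 2.42 to 194 ± 1.51 FPKM and GLN1.3, a cytosolic glutamine synthetase, from 37.6 ± 0.797 to 67.6 ± 0.446 FPKM; the list had 10 higher and 11 lower of 31, or 12 and 11 with values rescaled to TPM. Vitamin B6 genes rose in 16 of 19 members, with PDX2 and PDX1.1 of pyridoxal phosphate synthesis at 0.69 and 0.64.

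In the plant-pathogen interaction pathway 127 of 292 members fell (43.5%) and 74 rose, against 23.4% and 41.1% of all tested genes. RLP23, the receptor of a microbial peptide, was at 10.9, 12 and 11.1 FPKM in Col-0 and 1.98, 1.95 and 2.09 FPKM in mettl16 (log2 change -2.03, SE 0.0583, limma adjusted p = 3e-09). WRKY54, a partner of WRKY70 in leaf ageing, was at 12.3, 11.6 and 11.5 FPKM in Col-0 and 2.17, 2.28 and 2.57 FPKM in mettl16. The plant MAP kinase pathway had 100 lower and 64 higher of 249. PR4, a chitin-binding protein, was at 33, 36.7 and 33 FPKM in Col-0 and 6.24, 8.46 and 6.88 FPKM in mettl16. PDF1.2b and PDF1.2c, defensins with near-identical copies, were at 3.83, 4.6 and 4.23 FPKM in Col-0 and 0, 0.223 and 0 FPKM in mettl16, and at 4.08, 4.07 and 4.51 FPKM in Col-0 and 0, 0.0675 and 0 FPKM in mettl16. In all of these the mettl16 libraries lay wholly below Col-0. PDF1.2b and PDF1.2c passed the filter only through Col-0, so their separation is description alone.

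Among the 25 largest falls outside the genes left out were glutathione transferases, lectin-like and lipid-transfer proteins. GSTF7 was at 30.1, 32.2 and 31.8 FPKM in Col-0 and 4.26, 3.73 and 5.09 FPKM in mettl16, and GSTF2, a close relative, at 154, 159 and 159 FPKM in Col-0 and 29.7, 33 and 30.2 FPKM in mettl16. NATA1, which makes acetylated ornithine in response to jasmonate, was at 8.73, 7.82 and 8 FPKM in Col-0 and 0.262, 0.681 and 0.517 FPKM in mettl16 (log2 change -2.64, SE 0.104, limma adjusted p = 2.43e-08). NATA1 passed the filter only through Col-0, so its p-value adds no support. PNP-A, a secreted peptide induced in infected leaves, was at 12.2, 13.3 and 12.9 FPKM in Col-0 and 1.42, 1.3 and 0.937 FPKM in mettl16. TAT3, a tyrosine aminotransferase, went from 54 ± 2.34 to 8.75 ± 0.477 FPKM. HR4, a relative of the mildew resistance gene RPW8, went from 97.2 ± 2.74 to 18.7 ± 0.651 FPKM, and MBP1, a myrosinase-binding protein, from 58.4 ± 1.56 to 11.6 ± 0.109 FPKM. Genes of high level fell too, AT5G42530 from 1725 ± 68.9 to 504 ± 26.3 FPKM, the thionin AT1G66100 from 529 ± 6.49 to 161 ± 1.81 FPKM and PCC1, controlled by pathogens and the clock, from 182 ± 3.73 to 61.3 ± 3.01 FPKM.

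More jasmonate and glucosinolate genes fell than rose. Of 51 genes of linolenic acid metabolism, the route to jasmonate, 25 fell and 13 rose. AOC1, an allene oxide cyclase, was at 46.4, 42.8 and 43.6 FPKM in Col-0 and 9.64, 10.1 and 9.63 FPKM in mettl16 (log2 change -2.07, SE 0.0423, limma adjusted p = 3.66e-10), and has close copies. JMT, which makes methyl jasmonate, rose and was at 5.47, 5 and 6.04 FPKM in Col-0 and 16.9, 17.2 and 18.3 FPKM in mettl16. CHAT, which makes a leaf volatile, went from 2.22 ± 0.216 to 7.15 ± 0.639 FPKM. Of 22 glucosinolate genes 15 fell and 3 rose. CYP79B2 and CYP79B3, which turn tryptophan into the precursor of indole glucosinolates, went from 47 ± 1.39 to 21.5 ± 0.123 FPKM and from 57.8 ± 0.723 to 29.9 ± 0.478 FPKM. MYB28, the main regulator of glucosinolates made from methionine and listed among the bundle sheath markers, rose from 33 ± 1.78 to 95.5 ± 2.04 FPKM, and MYB76, a related factor, changed by -0.45.

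Touch and wound genes had the largest share of fallers among the lists. Of 26 tested members 20 fell and 4 rose (median -0.39). These are genes whose transcripts rise within minutes of handling, cutting or infection. TCH3, a calmodulin-like protein, was at 115, 114 and 109 FPKM in Col-0 and 44.6, 45.7 and 49 FPKM in mettl16 (log2 change -1.26, SE 0.0394, limma adjusted p = 5.24e-09). WRKY33, a regulator of resistance to fungi, was at 32.5, 33.7 and 33.1 FPKM in Col-0 and 14.2, 15.4 and 14.4 FPKM in mettl16 (log2 change -1.12, SE 0.0399, limma adjusted p = 1.26e-08). MYB15 went from 2.71 ± 0.257 to 1.08 ± 0.108 FPKM, ERF11 from 5.37 ± 0.194 to 2.53 ± 0.305 FPKM and ZAT6 from 5.33 ± 0.55 to 2.62 ± 0.474 FPKM. EXO, an extracellular growth protein, was higher at 28.5, 28.5 and 30.2 FPKM in Col-0 and 55.4, 55 and 52.3 FPKM in mettl16, and RHL41, a zinc finger protein of light and cold responses, rose by 0.66. TCH2 rose by 0.34 and TCH4, a wall enzyme, by 0.10.

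More ethylene genes fell than rose. Of 19 tested members 11 fell and 3 rose. ACO1 (AT2G19590), an enzyme of the last step of ethylene synthesis, was at 6.87, 6.74 and 7.52 FPKM in Col-0 and 2.5, 2.28 and 2.78 FPKM in mettl16 (log2 change -1.19, SE 0.0722, limma adjusted p = 4.07e-07). EIL1, a transcription factor of the response, went from 47.4 ± 0.987 to 30.7 ± 0.846 FPKM, and ACS11, of an earlier step of synthesis, rose from 1.09 ± 0.245 to 3.54 ± 0.346 FPKM. Abscisic acid genes had 7 higher and 10 lower of 30, or 10 and 9 without the filter on low values, with NCED4, a carotenoid cleavage dioxygenase, at -0.89 and OST1, the kinase that closes stomata, at 0.84. Auxin genes had 16 higher and 9 lower of 32. LAX3, an auxin importer, was at 3.48, 3.82 and 3.88 FPKM in Col-0 and 10.7, 10.9 and 11.7 FPKM in mettl16. Cytokinin genes had 13 higher and 8 lower of 31, which turned to 9 and 12 after median centring. LOG5, which activates cytokinin, was at 0.317, 0.347 and 0.531 FPKM in Col-0 and 6.4, 6.96 and 6.61 FPKM in mettl16 (log2 change 2.46, SE 0.0807, limma adjusted p = 7.35e-09), and LOG8, of the same family, changed by -0.90. LOG5 passed the filter only through mettl16, so its p-value adds no support. Brassinosteroid genes had 9 higher and 10 lower of 24, or 10 and 9 with values rescaled to TPM.

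Of 42 tested meristem, leaf polarity and boundary genes 23 rose and 6 fell. After quantile normalization 19 rose and 11 fell, and 3 fell where replicate 2 of either genotype was left out. KNAT1, a homeobox gene of stems and the inflorescence, was at 7.48, 7.76 and 7.81 FPKM in Col-0 and 43, 42.3 and 39.4 FPKM in mettl16 (log2 change 2.29, SE 0.0434, limma adjusted p = 2.26e-10). STM, which keeps the meristem, was at 9.62, 7.81 and 7.56 FPKM in Col-0 and 20.2, 20.7 and 20.3 FPKM in mettl16, and CUC3, of organ boundaries, went from 1.45 ± 0.131 to 3.91 ± 0.181 FPKM. TCP3, which promotes leaf maturation, fell from 21.7 ± 0.954 to 14.1 ± 1.71 FPKM. Stomata and trichome genes were split, 10 higher and 9 lower of 32, and 9 and 10 after median centring. TCL1, a repressor of trichomes on stems, was at 2.24, 2.8 and 2.4 FPKM in Col-0 and 8.37, 8.53 and 10.9 FPKM in mettl16. ERL1, a receptor kinase that limits stomata, went from 1.03 ± 0.101 to 3.32 ± 0.294 FPKM.

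Nutrient lists were mixed. Iron, zinc and copper genes had 17 higher and 10 lower of 32, or 12 and 12 after quantile normalization. FER1, the leaf ferritin that stores iron, was at 329.6, 333 and 338 FPKM in Col-0 and 149, 153 and 150.1 FPKM in mettl16 (log2 change -1.14, SE 0.0242, limma adjusted p = 4.51e-10), while FER2, the ferritin of seeds, rose from 1.07 ± 0.143 to 3.69 ± 0.687 FPKM and YSL2, a metal transporter, from 2.5 ± 0.11 to 7.68 ± 0.152 FPKM. Sulfur genes had 14 higher and 7 lower of 24, or 8 and 8 after quantile normalization. LSU1, induced by low sulfur, was at 2.24, 0.222 and 1.87 FPKM in Col-0 and 6.6, 6.34 and 6.42 FPKM in mettl16 (log2 change 1.73, SE 0.418, limma adjusted p = 0.0196). The LSU1 call was lost without any 1 of the mettl16 libraries. Phosphate starvation genes had 8 higher and 3 lower of 21, or 6 and 7 after quantile normalization. PS2 (AT1G73010), a phosphatase induced by low phosphate, went from 1.56 ± 0.417 to 4.69 ± 0.399 FPKM and PAP10, a secreted acid phosphatase, from 46.5 ± 1.8 to 24.8 ± 1.27 FPKM.

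A small set of genes was listed above 0 in only one genotype. There were 27 genes listed at 0 in all 3 Col-0 libraries and at 1 FPKM or more in each mettl16 library, and 3 of the opposite kind; with 1 FPKM lowered to 0.5 the first count was 54. The highest of the 27 was GRP19, a glycine-rich protein, at 8.72, 10.4 and 11.9 FPKM in mettl16. AT5G52160, a lipid-transfer-like protein, was at 7.33, 7.47 and 7.41 FPKM, and AT1G68875, with no description, at 5.06, 4.66 and 4.22 FPKM. MS2 and ACOS5, of pollen wall synthesis, belong to the 27 and to the anther markers, and SHT, which makes spermidine conjugates of the pollen coat, is another. The third gene of the opposite kind, beside AT1G27565 and AT4G09310, was AT4G08093, at 1.21, 1.1 and 1.33 FPKM in Col-0. A value of 0 in this table can be a failed estimate, so no fold is given.

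On chromosome 4 several of the largest falls lay near each other. This run was noticed after the values were seen. MIR850 (AT4G13493, chromosome 4, 7845707 to 7845927, build TAIR10, plus strand), a miRNA gene, was at 26.7, 24.7 and 25 FPKM in Col-0 and 4.8, 2.84 and 3.98 FPKM in mettl16. It lies inside AT4G13495 (7842967 to 7846774, plus strand), an annotated RNA of no named function, at 194, 201 and 189 FPKM in Col-0 and 43.5, 43.2 and 43.7 FPKM in mettl16, so their fragments cannot be told apart. MIR863 (AT4G13494), which overlaps the end of AT4G13495, changed by -1.05. Further along, UNE15 changed by -0.91, HTA4, a histone H2A gene, by -1.24 (limma adjusted p = 0.0457), AT4G13572 by -1.98 and AT4G13575 (7892320 to 7893705, minus strand) by -2.66. Genes between them differed, with AT4G13500 at 0.10 and no call, AT4G13540 higher by 0.48 and AMT1;1, an ammonium transporter, lower by 0.55 on the log2 scale.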

How the data were processed

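The authors deposited 1 table of FPKM values per gene with KEGG annotation for the 6 RNA-seq libraries, and a table of m6A peaks with log2 fold changes and scores per peak, which is used once as deposited. FPKM are scaled by gene length and library, so the deposited values hold no depth and no counting error can be given. HISAT2, StringTie, edgeR, fastp, cutadapt, HOMER and the build TAIR10 are named per the submitters' processing notes, without versions; their roles are not stated there. Scaling by FPKM makes each value relative to the rest of its library.

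FPKM were changed to log2(FPKM + 1). Genes whose mean reached 0.5 FPKM were fitted with limma 3.58.1 (R 4.3.3) with a prior that follows the mean and no covariate, and p-values were adjusted by Benjamini-Hochberg over all 19505 tested genes. Gene names came from the RefSeq gene table, which gave symbols for 24402 IDs (95.4%). Named genes were the 25 largest rises and falls, and 12 each with a mean of at least 100 FPKM, among called genes whose groups do not overlap. The largest changes of each described pathway and list were added from all called genes, with or without overlap. Members of the lists written after the values were seen were named whether called or not. SEN1 (one of the genes left out), PYK10, MYB36, CASP1, SOG1, ATM, ATG13, NBR1, ATG8D, ATG8H, APG5, APG7, MYB15, ZAT6, TCH2, TCH4, WRKY54, iPGAM2, ATMG00480, SHT, ACOS5, MS2 and the chromosome 4 neighbours were named outside these rules, after their values were seen. The members and lists were chosen with earlier results of these data known. Alternatives were another pseudocount, 2 other filters, median centring, quantile normalization, TPM, a constant prior, a replicate block and leaving out each library. The fit was tested on simulated data.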

Additional observations from a re-analysis of the deposited data

How the results depend on the processing

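No named gene's called direction was reversed under any alternative; the majorities of some lists and pathways turned or became even under some. With a pseudocount of 0.1, 1138 genes were higher and 645 lower by at least 1, against 590 and 397. After median centring 62 KEGG pathways had more members higher and 52 more lower, and after quantile normalization 51 and 65, against 97 and 22. With presence set at 0.5 FPKM, 54 genes were at 0 in Col-0 alone, against 27. Leaving out 1 library gave 7374 to 7704 genes higher and 4208 to 4293 lower, 589 to 607 and 391 to 406 by at least 1, 90 to 93 and 22 to 28 pathways, 25 to 26 and 9 to 11 lists, and 400 to 403 named genes called as before, against 409.

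No pairing by replicate number was seen: deviations of same-numbered libraries correlated at -0.0823, 0.00866 and 0.00173. Those of libraries with different numbers ran from -0.0826 to 0.084. With 3 libraries per genotype, these values cannot show that the libraries were unpaired. With the replicate number as a block 7915 genes were higher and 4494 lower, 590 and 395 by at least 1.

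The planned count of promoter motifs was not run, as no sequence was used here. FPKM give no depth, so the counting error behind values near 0 is unknown, also where limma called them, and the added 1 holds their changes down.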

Other observations

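The authors' deposited table of m6A peaks listed a peak for 29.1% of the 19505 tested genes. The share was 31.7% among genes higher in mettl16, 28.1% among those lower and 26.8% among those with no call. Among genes higher by at least 1 it was 31.4%, and among genes lower by at least 1 it was 22.2%. The median log2 value of those peaks, from the authors' deposited table, was -0.31 in the former, -0.13 in the latter and -0.23 over all tested genes. Peaks are found more easily in abundant transcripts, and the median levels of these sets were 5.85, 8.81 and 9.31 FPKM, so the shares are given as values alone.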
